A study of Rattus norvegicus with 6 samples.

Results

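Matrix metalloproteinases (Mmp genes) and their tissue inhibitors (Timp genes) were followed in rat metrial gland, for 10 genes: the proteases Mmp2, Mmp9, Mmp10, Mmp11, Mmp12, Mmp14 and Mmp15 and the inhibitors Timp1, Timp2 and Timp3. They were taken by name, as every probe set that the platform annotation assigned to 1 of these genes alone, which gave 17 of the 31042 probe sets of the array that are not controls. All 6 arrays measured total RNA of metrial gland tissue, taken from pregnant rats at gestation day 13.5. In the ambient group (3 arrays) the animals breathed 21% oxygen, and in the hypoxia group (3 arrays) they were held at 10.5% oxygen, starting on gestation day 6.5 and ending on day 13.5. The labels name no strain, and do not say whether an array held 1 animal or a pool, so the spread behind the p-values is that between arrays and may be partly technical.

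Matrix metalloproteinases are zinc enzymes that are made as inactive precursors and, once cut open, digest collagens, elastin, laminins and other matrix proteins. The Timp proteins bind the active enzymes and block them, and Timp2 also takes part in the activation of Mmp2 at the cell surface by the membrane-anchored Mmp14. In the metrial gland, the part of the rodent uterine wall behind the placenta, trophoblast cells move along and around the maternal arteries while natural killer cells, stroma and vessels are being rearranged. Matrix proteolysis is known from this setting in both trophoblast and maternal cells.

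Values are log2 signals, so a difference of 1 is a doubling, and each difference is the hypoxia mean less the ambient mean, with its standard error (SE). At an adjusted p under 0.05 (limma, Benjamini-Hochberg over 18625 probe sets left after a filter on low means), Mmp10, Mmp12 and Mmp15 rose and no member fell. That is 3 of the 15 member probe sets that passed the filter, or 3 of 10 genes, where 4.02% of all probe sets tested were called higher and 1.97% lower. The member count was 1 without ambient replicate 2, ambient replicate 3 or, separately, hypoxia replicate 3, and 2 when any other array was dropped. At an unadjusted p under 0.05, 7 member probe sets were higher and 1, that of Timp1, lower, where 13.1% of all probe sets tested were higher and 10.6% lower at that threshold. Of the 10 genes, 9 had a probe set past the filter. Mmp11 did not, and it is given below without a test in the filtered table. In 7 of the 15 member probe sets every hypoxia array lay above every ambient array, and in 1 every hypoxia array lay below. Over all probe sets tested those shares were 15.8% and 14.1%.

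Replicate arrays correlated between 0.989 and 0.993 and arrays of different groups between 0.974 and 0.983, over the probe sets tested. In all, 749 probe sets were called higher and 367 lower, a share of 67.1% higher that was 55.3% after quantile normalization. With 1 array dropped, between 223 and 683 were higher and between 44 and 346 lower, with the fewest calls without ambient replicate 3. The tissue label was set against marker genes: perforin (Prf1) and granzyme B (Gzmb), which mark uterine natural killer cells, stood at 13.64 ± 0.17 and 14.47 ± 0.05 in ambient (SD, n = 3), and the decidual prolactin Prl8a2 at 11.51 ± 0.24. RNA integrity was read from beta-actin control probe sets: their 3′ end exceeded their 5′ end by 0.41 to 0.54 on the ambient arrays and by 0.58 to 0.77 on the hypoxia arrays, while those of the Gapdh control overlapped between the groups (-0.047 to -0.008 and -0.040 to 0.057). The part of this in the results was not tested.

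The members differed widely in signal. The affinity of a probe set is unknown, so these signals place each gene within the array and do not rank transcript amounts between genes. In ambient air Timp2, Mmp2, Timp1 and Mmp14 each gave a signal above that of over 98% of all probe sets: the percentiles were 99.5, 99.4, 99.3 and 98.6. Mmp12, a macrophage and trophoblast elastase, stood at the 94.5th percentile in ambient and the 98.7th in hypoxia. Timp3, an inhibitor that stays bound to the matrix, stood at 89.8 and 90.5. Mmp10 went from 65.8 to 95.2 and Mmp15 from 57.0 to 67.9. Mmp9 was dim, at 48.5 and 51.3, and Mmp11, known as stromelysin-3, stood at 29.7 and 30.7, near the highest signal of 27 bacterial control probe sets (5.003).

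**Figure D1:**
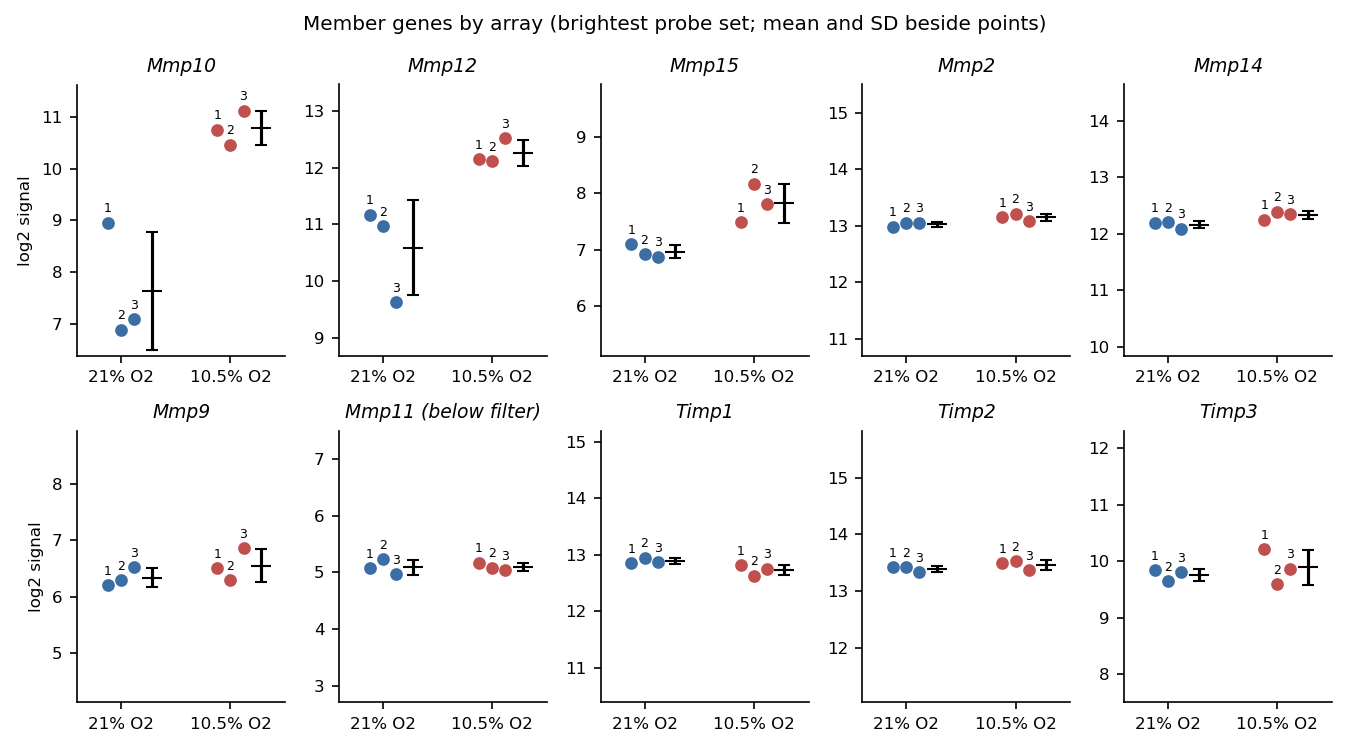
Log2 signal of each member gene at its brightest probe set on the 3 arrays at 21% oxygen (blue) and the 3 at 10.5% oxygen (red), with replicate numbers, and with the group mean and SD as black bars. Mmp10, Mmp12 and Mmp15 show groups set apart by 1.51, 0.94 and 0.38, while the group means of Mmp2, Mmp14, Timp1 and Timp2 differ by 0.17 or less; the panels have different vertical ranges.

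Mmp10, or stromelysin-2, cuts proteoglycans, laminin and fibronectin and can activate other Mmp precursors. It read 8.95, 6.89 and 7.09 on ambient replicates 1, 2 and 3, and 10.75, 10.46 and 11.11 on hypoxia replicates 1, 2 and 3. Every hypoxia array lay above every ambient array, and ambient replicate 1 stood well above the other ambient arrays. The rise was 3.13 (SE 0.49, 95% interval 2.003 to 4.26; limma adjusted p = 0.0149). The group mean went from 7.65 ± 1.14 to 10.77 ± 0.33 (SD, n = 3 in each group), an 8.75-fold change. Without ambient replicate 1 the rise was 3.78. Without ambient replicate 3 it was 2.85 and the call was lost (adjusted p = 0.0616), and over all alternatives the adjusted p ran from 7.7e-04 to 0.0616.

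Mmp12, or macrophage elastase, degrades elastin and other matrix proteins and is also made by invasive trophoblast of the rat. Its ambient values were 11.17, 10.97 and 9.63 and its hypoxia values 12.16, 12.11 and 12.52, in replicate order. The groups did not overlap, and the low array was ambient replicate 3, not an array on which Mmp10 stood apart. The rise was 1.68 (SE 0.36, interval 0.85 to 2.501; limma adjusted p = 0.0383), which took the mean from 10.59 ± 0.84 to 12.26 ± 0.22, 3.19-fold. Leaving out ambient replicate 3 reduced the rise to 1.20 while the call was kept (adjusted p = 0.020). The call was lost without ambient replicate 2 (0.070), without hypoxia replicate 1 (0.0928), 2 (0.0865) or 3 (0.0764), with no variance trend (0.0507) and with a robust trend (0.0706).

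Mmp15 encodes a membrane-anchored metalloproteinase related to Mmp14. It gave 7.11, 6.93 and 6.88 in ambient and 7.49, 8.17 and 7.81 in hypoxia. The groups did not overlap, with the smallest gap between hypoxia replicate 1 and ambient replicate 1. The rise was 0.86 (SE 0.16, interval 0.48 to 1.24; limma adjusted p = 0.0292), which took the mean from 6.97 ± 0.12 to 7.83 ± 0.34, 1.81-fold. The call was lost without ambient replicate 1 (0.0554), 2 (0.087) or 3 (0.106) or hypoxia replicate 3 (0.0523), with rises between 0.81 and 0.92 in those 4 fits. Each of these 3 proteases was represented by 1 probe set, so no second probe set bears on their rises.

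**Figure D2:**
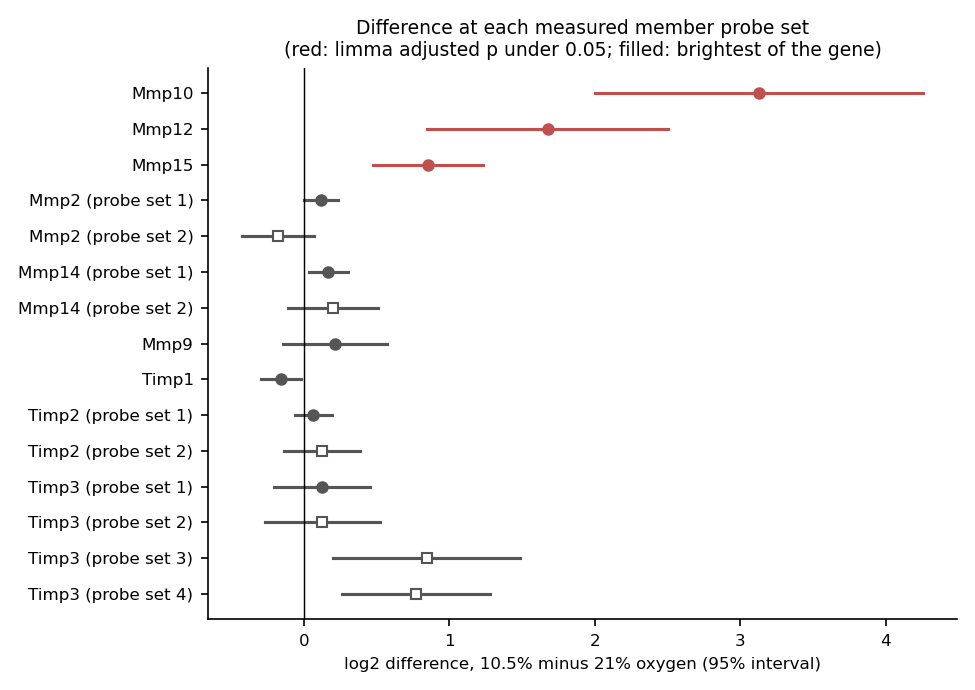
Log2 difference between 10.5% and 21% oxygen with its 95% interval from limma, for the 15 member probe sets that passed the filter on low means; red marks an adjusted p under 0.05, filled circles the brightest probe set of a gene and open squares its others, numbered by brightness. The intervals of Mmp10, Mmp12 and Mmp15 start at 2.003, 0.85 and 0.48, and the 4 Timp3 probe sets fall into a pair near 0.13 and a pair at 0.85 and 0.77.

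By RefSeq's gene order in rat assembly GRCr8, Mmp10 and Mmp12 belong to a run of 10 Mmp genes on chromosome 8, in the order Mmp13, Mmp12, Mmp1b, Mmp3, Mmp1, Mmp10, Mmp8, Mmp27, Mmp20 and Mmp7, while Mmp15 lies on chromosome 19. RefSeq promoter sequences were held here for 7 of the 10 members. The 250 bases before the annotated start are shown for the 3 genes that rose. They are also shown for Mmp13 and Mmp3, neighbours of Mmp12 and Mmp10 that did not pass the test. Whether these genes differ from each other in their response was not tested. Capitals mark 3 motifs, searched on both strands: TGANTCA (the AP-1 site), ACGTG (the core of a hypoxia response element) and TATAAA (the TATA box). Letters run 5′ to 3′ on the strand of the gene, and positions count back from the annotated start.
Mmp10, chr8:12974457-12974706, plus strand: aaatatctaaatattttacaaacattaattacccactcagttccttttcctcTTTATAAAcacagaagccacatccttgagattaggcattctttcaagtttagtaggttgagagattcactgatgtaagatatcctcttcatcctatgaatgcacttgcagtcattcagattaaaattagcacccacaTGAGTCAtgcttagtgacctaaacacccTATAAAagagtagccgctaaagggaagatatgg
Mmp12, chr8:12866402-12866651, plus strand: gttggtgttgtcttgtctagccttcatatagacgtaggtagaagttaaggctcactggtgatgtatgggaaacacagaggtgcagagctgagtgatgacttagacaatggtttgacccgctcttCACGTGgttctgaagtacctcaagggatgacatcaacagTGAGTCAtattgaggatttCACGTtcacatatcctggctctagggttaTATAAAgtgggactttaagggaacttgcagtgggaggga
Mmp3, chr8:12925031-12925280, plus strand: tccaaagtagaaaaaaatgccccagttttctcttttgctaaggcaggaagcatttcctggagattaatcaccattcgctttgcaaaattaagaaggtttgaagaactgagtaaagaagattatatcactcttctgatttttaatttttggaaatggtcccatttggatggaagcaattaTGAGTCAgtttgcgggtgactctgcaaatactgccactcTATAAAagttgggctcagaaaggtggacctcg
Mmp13, chr8:12782579-12782828, plus strand: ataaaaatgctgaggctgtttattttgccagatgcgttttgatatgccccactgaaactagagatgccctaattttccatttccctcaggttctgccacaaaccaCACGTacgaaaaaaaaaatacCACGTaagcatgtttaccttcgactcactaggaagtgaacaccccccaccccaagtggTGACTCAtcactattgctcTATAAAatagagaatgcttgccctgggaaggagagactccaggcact
Mmp15, chr19:9691001-9691250, minus strand: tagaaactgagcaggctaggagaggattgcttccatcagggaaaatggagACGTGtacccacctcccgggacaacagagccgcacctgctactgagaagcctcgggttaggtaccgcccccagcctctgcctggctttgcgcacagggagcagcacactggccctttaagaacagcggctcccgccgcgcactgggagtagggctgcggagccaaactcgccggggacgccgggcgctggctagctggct

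TGANTCA occurred at position -61 in Mmp10, -87 in Mmp12, -71 in Mmp3 and -66 in Mmp13, each time upstream of a TATAAA nearer to the start (-33, -39, -32 and -47). It also occurred at -80 in Mmp7, and not in Mmp8, so 5 of the 6 genes of the run with a promoter and a probe set held it. Among 33469 promoter windows of the same length, 6.34% held TGANTCA, 12.9% TATAAA and 16.6% ACGTG. Of the 7 member promoters held, TGANTCA was found in those of Mmp10 and Mmp12 alone. No promoter was held for Mmp2, Mmp9 and Mmp14, and near matches were not searched. Mmp15, which rose, held no match, while Mmp3 and Mmp13 held one and did not pass the test. A link between the motif and the rises was not tested. ACGTG was found in Mmp12, at -125 and -68 (at -126 the same letters match on the other strand), in Mmp15 at -200 and in Mmp13 at -145 and -124. A TATAAA match on each strand overlaps in Mmp10 at -198 and -196. The matches describe these letters and are not evidence that a factor binds there.

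The expression of the neighbours was set beside this. Mmp3, or stromelysin-1, is close in sequence to Mmp10, and whether their probe sets cross-hybridise was not tested. Mmp3 read 10.07, 9.73 and 9.91 in ambient and 10.15, 10.19 and 10.38 in hypoxia, and the groups were apart by 0.079. Its difference was 0.33 (SE 0.10, limma adjusted p = 0.0926). Mmp13, a collagenase, read 7.37, 7.17 and 8.08 in ambient and 6.77, 6.53 and 7.54 in hypoxia, with overlapping groups and a difference of -0.59 (SE 0.30, adjusted p = 0.273). Mmp8 and Mmp7 were too dim for the filtered table, Mmp8 at or below the highest bacterial control on all 6 arrays and Mmp7 above it on 2 hypoxia arrays.

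By a fixed rule, the 3 genes with the highest Pearson correlation over the 6 arrays were named for each member that rose, among 10545 other genes. The 6 points share the contrast between the groups, so r is a description and is given without a p. Genes picked in this way tend to share a member's high and low arrays because of how they were picked. Mmp12 ran closest to Prl7d1, Prl5a1 and Prl7b1 (r between 0.997 and 0.999), members of the placental prolactin family that rat trophoblast makes. Prl5a1 and Prl7b1 are also in the trophoblast marker list used below. These genes shared the low ambient replicate 3: there Prl5a1 read 8.96, against 10.69 and 10.42 on the other ambient arrays and 11.72 to 12.31 in hypoxia. The Mmp12 signal minus the Prl5a1 signal lay between 0.48 and 0.67 in ambient and between 0.22 and 0.43 in hypoxia, so Prl5a1 moved further than Mmp12 did.

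Mmp10 ran closest to Trh, Plet1 and Fam25a (r between 0.994 and 0.997). Trh, the precursor of thyrotropin-releasing hormone, read 10.26 on ambient replicate 1 and 6.82 and 7.46 on the others, against 12.93 to 13.32 in hypoxia. The ambient array that was high for Mmp10 was also high for Trh, which the choice by correlation favours. Mmp15 ran closest to Naa30, Pin4 and Alg14 (r between 0.989 and 0.995), whose own differences of 0.12 to 0.28 did not pass. The Mmp10 and Mmp12 profiles themselves differed among ambient arrays: Mmp10 was high on replicate 1, Mmp12 low on replicate 3.

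**Figure D3:**
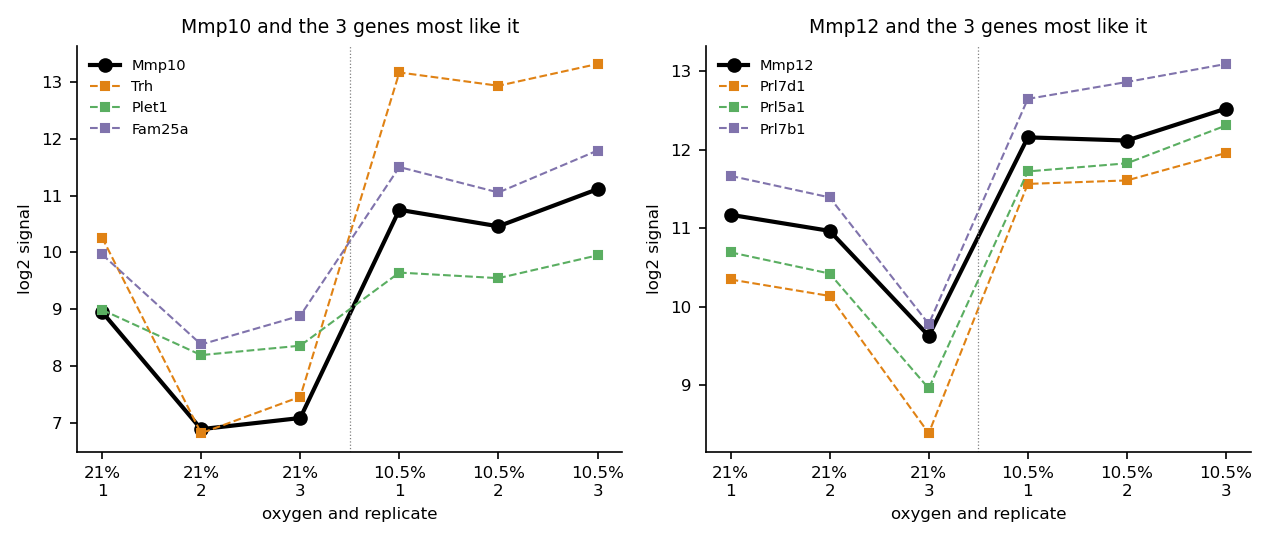
Log2 signal over the 6 arrays of Mmp10 (left) and Mmp12 (right), in black, with the 3 genes of highest Pearson correlation to each in colour; lines join the values of a probe set and imply no order of replicates. Mmp10 and Trh share a raised ambient replicate 1 (8.95 and 10.26), and Mmp12 and the prolactin genes share a lowered ambient replicate 3 (9.63 for Mmp12).

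Trophoblast and macrophages are both known to make Mmp12, and their marker genes were read beside it. In such bulk samples, fewer or more cells of a type and less or more RNA per cell cannot be told apart. The counts below stand beside 4.02% called higher and 1.97% lower over all probe sets tested. At an unadjusted p under 0.05 those shares were 13.1% and 10.6%. Of 14 trophoblast markers measured, 10 rose, among them Plac1 by 2.16 (SE 0.27), Krt7 by 1.05 (SE 0.13) and Cdkn1c by 1.54 (SE 0.20). At an unadjusted p under 0.05, 13 were higher, while Krt19 went the other way, by -0.43, without a call. Plac1, Krt7, Cdkn1c and Igf2 kept their calls whichever array was left out, and the other 6 lost theirs without at least 1 array. Their summed signal (log2 of the sum over 14 genes, 0 of them at background on all arrays) was 13.71, 13.43 and 12.23 on ambient replicates 1, 2 and 3, and between 14.57 and 15.08 in hypoxia. This sum mostly follows its brightest genes, which were Prl4a1, Prl7b1, Prl2a1 and Prl5a1 on every array. Prl5a1 and Prl7b1 were also picked above for their likeness to Mmp12. Among ambient arrays Krt7, Krt8, Krt19 and Ascl2 were lowest on replicate 2, and the other markers on replicate 3. Of 12 macrophage markers measured, 2 fell and none rose by limma, with 0 higher and 6 lower at an unadjusted p under 0.05. Cd163 fell by 1.05 (SE 0.09) and Fcgr2b by 1.10 (SE 0.15). The summed macrophage signal lay between 13.09 and 13.15 in ambient and between 12.69 and 12.87 in hypoxia. The part of either cell type in the rise of Mmp12 was not tested. Marker genes of other cell types were read as well. Of 11 natural killer markers 4 fell and 0 rose, with Cst7 at -0.73, while Klrd1 differed by 0.52 without a call. The summed natural killer signal was 15.52 to 15.71 in ambient and 15.23 to 15.37 in hypoxia, with Gzma at background. Of 3 epithelial markers 2 fell, Epcam by 1.77 and Cdh1 by 1.07 (summed signal of 7 genes 9.42 to 9.94 and 8.53 to 9.17; Cldn4 at background). Of 5 red cell markers 4 rose, Alas2 by 2.30 (summed signal of 7 genes 12.89 to 13.35 and 14.15 to 14.46; Epb42 at background). Of 9 smooth muscle and pericyte markers 0 rose or fell (median 0.10). Of 12 decidual and stromal markers 2 rose and 0 fell (median 0.06). The part of all these cell types in the members' differences was not tested.

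Mmp2 (gelatinase A) digests denatured collagen and type IV collagen of basement membranes. At its bright probe set it read 12.98, 13.05 and 13.05 in ambient and 13.15, 13.22 and 13.08 in hypoxia. The hypoxia arrays were all higher, by a gap of 0.03, and the difference of 0.12 (SE 0.05, interval 0.003 to 0.24) did not pass (limma adjusted p = 0.202). A dim second probe set, at 5.89 ± 0.13 and 5.71 ± 0.13, differed by -0.18 (SE 0.11, adjusted p = 0.367), with overlapping groups.

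Mmp14, the membrane-anchored collagenase that activates Mmp2, read 12.19, 12.21 and 12.09 in ambient and 12.25, 12.39 and 12.35 in hypoxia. Here too all hypoxia arrays were higher, by a gap of 0.05. Its difference was 0.17 (SE 0.06, interval 0.04 to 0.30, adjusted p = 0.128), and that of its second probe set 0.20 (SE 0.13, adjusted p = 0.406). For both enzymes the upper bounds at the bright probe set, 0.24 and 0.30, lie below the lower bounds of Mmp10, Mmp12 and Mmp15.

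Mmp9 (gelatinase B), stored in neutrophil granules and made by trophoblast of many species, read 6.20, 6.29 and 6.52 in ambient and 6.50, 6.29 and 6.86 in hypoxia. The groups overlapped and the difference was 0.21 (SE 0.16, interval -0.14 to 0.57, adjusted p = 0.446). Its second probe set was below the filter and stood above the highest bacterial control on 1 ambient and all 3 hypoxia arrays, at 5.11 ± 0.53 and 5.28 ± 0.20. The neutrophil genes S100a9 and S100a8 rose by 1.67 (SE 0.15) and 1.38 (SE 0.15). Of 5 neutrophil markers on the array they were the 2 that could be measured, and Csf3r, Cxcr2 and Camp were at background on all 6 arrays. The summed signal of the 5 lay between 8.27 and 8.47 in ambient and between 9.39 and 9.87 in hypoxia; its relation to Mmp9 was not tested. Mmp11, below the filter, read 5.07, 5.23 and 4.97 in ambient and 5.17, 5.08 and 5.04 in hypoxia, a difference of 0.008 (SE 0.09, limma adjusted p without the filter 0.975).

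The inhibitors did not pass the test at their brightest probe sets. Timp1, which binds most secreted Mmp proteins, read 12.85, 12.94 and 12.87 in ambient and 12.81, 12.63 and 12.75 in hypoxia. It was the sole member whose hypoxia arrays all lay below the ambient ones, by a gap of 0.04. The difference was -0.16 (SE 0.06, interval -0.29 to -0.02, limma adjusted p = 0.158), and it was negative in all 17 alternatives, between -0.20 and -0.11. Timp2 read 13.42, 13.42 and 13.34 in ambient and 13.49, 13.52 and 13.37 in hypoxia, with overlapping groups and a difference of 0.07 (SE 0.05, interval -0.06 to 0.19, adjusted p = 0.496). Its second probe set differed by 0.13 (SE 0.11, adjusted p = 0.539).

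Timp3 had 4 probe sets, and they disagreed. The brightest read 9.85, 9.65 and 9.81 in ambient and 10.21, 9.60 and 9.87 in hypoxia, a difference of 0.13 (SE 0.14, adjusted p = 0.639), and the next brightest also differed by 0.13 (SE 0.17, adjusted p = 0.690). At the third, the ambient arrays read 6.50, 6.59 and 6.55 and the hypoxia arrays 7.80, 6.63 and 7.74. At the fourth they read 6.56, 6.43 and 6.57, and 7.57, 6.71 and 7.59. At both dimmer probe sets hypoxia replicates 1 and 3 stood far above the ambient values, while hypoxia replicate 2 lay above them by 0.04 at the third and 0.14 at the fourth. Hypoxia replicate 2 was the lowest of the hypoxia arrays at all 4 probe sets. The difference was 0.85 at the third (SE 0.28), with an adjusted p of 0.117, and 0.77 at the fourth (SE 0.22), with an adjusted p of 0.0818. The files do not say which part of the transcript each probe set reads.

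**Figure D4:**
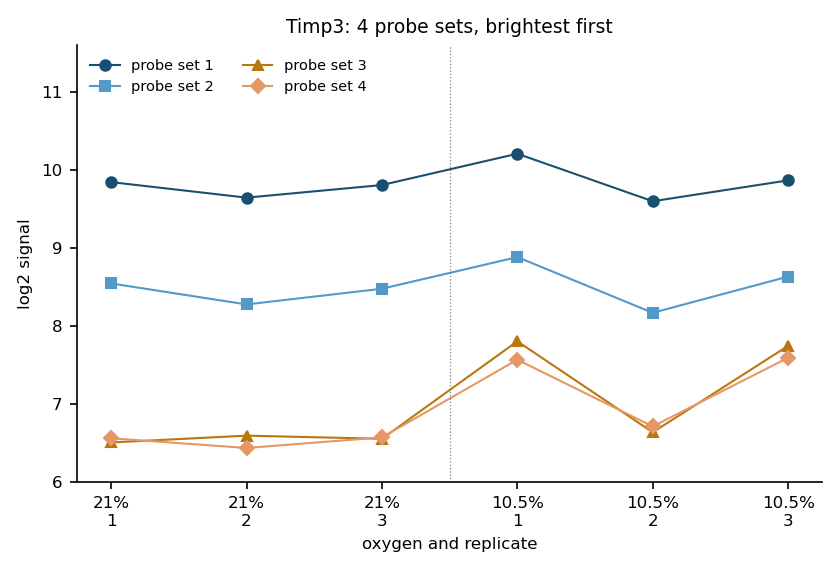
Log2 signal of the 4 Timp3 probe sets on each array, numbered from the brightest; lines join the values of a probe set and imply no order of replicates. Probe sets 3 and 4 read 7.80 and 7.57 on hypoxia replicate 1 but 6.63 and 6.71 on hypoxia replicate 2, while at probe sets 1 and 2 the groups overlap.

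The balance of protease to inhibitor was followed as the mean log2 signal of the 6 measured proteases minus that of the 3 inhibitors, each at its brightest probe set. The level of this score has no meaning, since probe sets differ in affinity, and only its change between arrays was read. It weighs each gene alike and rests on RNA signal, while protein and enzyme activity were not measured. The score was -2.27, -2.61 and -2.80 on ambient replicates 1, 2 and 3, and -1.79, -1.48 and -1.37 on hypoxia replicates 1, 2 and 3. All hypoxia arrays lay above all ambient arrays, and the mean moved by 1.02, from -2.56 ± 0.27 to -1.55 ± 0.22 (SD, n = 3 each). The score was built over members chosen with results known and is given without a p. The protease mean moved by 1.03 and the inhibitor mean by 0.01, the latter with overlapping groups. The inhibitor mean depends on the choice of Timp3 probe set. Timp3 entered at its brightest, with a difference of 0.13, as at the next brightest. Its dimmer probe sets differed by 0.85 and 0.77, without a call. With the kept probe sets of each gene averaged, Timp3 differed by 0.47, Timp2 by 0.10 and Timp1 by -0.16, and the score moved by 0.87.

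The 3 genes that rose made up most of the change in the score at the brightest probe sets. Without Mmp10 the change was 0.59, without Mmp12 0.89 and without Mmp15 1.05. With Mmp2, Mmp9 and Mmp14 alone it was 0.16, from -1.51 ± 0.07 to -1.35 ± 0.16, and the groups overlapped: hypoxia replicate 1, at -1.54, lay among the ambient values of -1.58, -1.49 and -1.45.

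Of the 18 single pairs of a protease and an inhibitor, 12 had hypoxia arrays all above the ambient ones, 0 all below, and 6 overlapped. The 12 were the pairs of Mmp10, Mmp12 and Mmp15 with each inhibitor and those of Mmp2, Mmp9 and Mmp14 with Timp1. Among them, Mmp15 against Timp3 was nearly tied, with a highest ambient value of -2.72085 and a lowest hypoxia value of -2.72079. The pairs reuse the same few genes, so this count largely restates the differences of single genes given above. No such share was computed over all pairs of probe sets. Mmp10 against Timp1 moved furthest, by 3.29, from -5.24 ± 1.17 to -1.96 ± 0.28. For the activation set of Mmp14, Timp2 and Mmp2, the Mmp14 signal minus that of Timp2 moved by 0.10 and Mmp2 minus Timp2 by 0.05, with overlapping groups in both. Mmp9 against Timp1, which binds the Mmp9 precursor, moved by 0.37, from -6.55 ± 0.17 to -6.18 ± 0.25. The groups of this pair barely parted: the highest ambient value was -6.351 and the lowest hypoxia value -6.345. Mmp9 alone had overlapping groups.

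**Figure D5:**
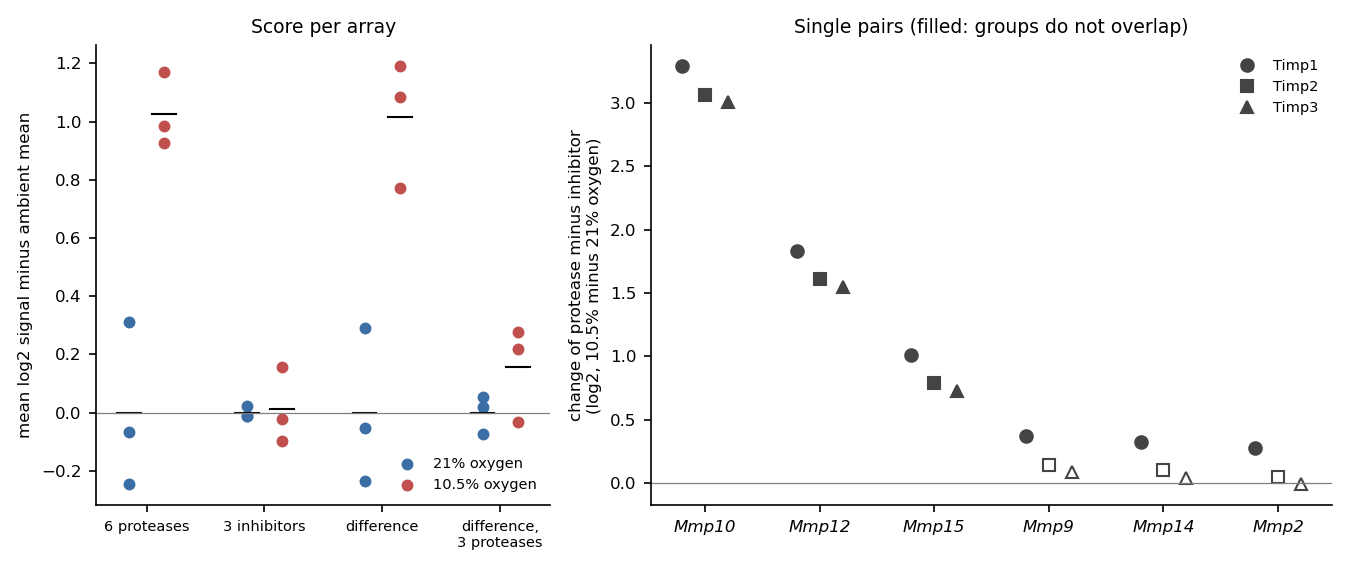
Left, mean log2 signal of the 6 proteases, of the 3 inhibitors, of their difference, and of the difference with Mmp2, Mmp9 and Mmp14 as the only proteases, each minus its ambient mean, for single arrays at 21% (blue) and 10.5% oxygen (red) with group means as black lines. Right, change of each protease minus each inhibitor between the oxygen levels; filled symbols mark the 12 pairs whose groups do not overlap, with Mmp10 against Timp1 highest at 3.29.

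The array held 11 further Mmp and Timp genes, of which 6 were measured: Mmp3, Mmp13, Mmp17, Mmp19, Mmp23 and Mmp24. By limma 0 were called in either direction, with 3 higher and 0 lower at an unadjusted p under 0.05 (over all probe sets, 13.1% and 10.6%). These were Mmp3, as above, Mmp17, by 0.26 (SE 0.08, adjusted p = 0.113), and Mmp23, by 0.29 (SE 0.12, adjusted p = 0.182). The median difference was 0.20 over the 6 genes, 0.17 over the 9 measured members and 0.003 over all probe sets tested. Timp4, a further inhibitor, Mmp8 and Mmp16 did not exceed the highest bacterial control on any array.

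Genes that act on the Mmp system were read from 4 lists. Their called counts stand beside 4.02% higher and 1.97% lower over all probe sets tested. Their counts at an unadjusted p stand beside 13.1% higher and 10.6% lower. Among 24 measured genes that activate, anchor or clear Mmp proteins or belong to the proteinase chains upstream of them, 2 rose and 0 fell (limma; 10 higher and 1 lower at an unadjusted p under 0.05), with a median of 0.13. Ctsb, the lysosomal protease cathepsin B, rose by 0.38 (SE 0.05, adjusted p = 0.00869). Plat, the tissue plasminogen activator, rose by 0.35 (SE 0.06, adjusted p = 0.0237). Furin, which opens the precursors of Mmp14 and Mmp15, was higher by 0.37 (SE 0.09) and just missed the threshold (limma adjusted p = 0.05002). The count was 7 with array weights, 4 with averaged probe sets and 1 without any 1 ambient array or hypoxia replicate 1.

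The Adam and Adamts genes encode relatives of the Mmp proteins, and Timp3 inhibits some of them but not all. Among 16 measured, 3 rose and 0 fell, with 5 higher and 2 lower at an unadjusted p under 0.05 and a median of 0.16. Adam19 rose by 0.31 (SE 0.06), Adam33 by 0.50 (SE 0.11) and Adam23 by 0.87 (SE 0.20). A second probe set of Adam23 differed by -0.03, and 3 others of Adam19 by 0.23 to 0.35 without a call. The count was 0 without any 1 ambient array or hypoxia replicate 1, 1 without hypoxia replicate 2, 0 with no variance trend, and 1 with averaged probe sets.

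Among 26 measured matrix proteins that Mmp enzymes cut, 4 rose and 0 fell (9 higher and 1 lower at an unadjusted p under 0.05; median 0.13): the laminin chains Lama5, by 0.48 (SE 0.07), and Lamb1, by 0.61 (SE 0.14), the basement membrane linker Nid1, by 0.42 (SE 0.08), and fibronectin (Fn1), by 0.18 (SE 0.04). A second probe set of Nid1 differed by 0.04. The count was 2 without ambient replicate 3 or with quantile normalization, and 1 with no variance trend or on leaving out either other ambient array, hypoxia replicate 1 or hypoxia replicate 2. Laminins and Nid1 are also made by vessels: of 10 endothelial markers, 5 rose, and their summed signal lay between 12.81 and 12.89 in ambient and between 13.09 and 13.22 in hypoxia, a part in these rises that was not tested.

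Among 22 measured regulators of Mmp genes, 5 rose and 0 fell (5 higher and 4 lower at an unadjusted p under 0.05; median -0.03). Il1b, a cytokine that induces stromelysins, rose by 0.57 (SE 0.08), and the nuclear receptor Pparg by 0.97 (SE 0.16). The growth factor Areg rose by 0.77 (SE 0.13) and the transcription factor Ets2 by 0.38 (SE 0.08). Fos, a subunit of AP-1, which binds TGANTCA, rose by 0.74 (SE 0.17, adjusted p = 0.0494) at its brightest probe set. The other measured AP-1 subunits did not pass and had negative differences: Junb -0.24 (SE 0.08, adjusted p = 0.105, groups apart), Jun -0.26 (SE 0.10, adjusted p = 0.184), Jund -0.07, Fosl1 -0.06 and Fosl2 -0.02. A second Fos probe set differed by -0.007, and the call at the first was lost on leaving out any single array other than hypoxia replicate 2 (adjusted p up to 0.137), and with no filter or quantile normalization among others. The list's count was 2 with the lowest 60% of probe sets left out, and also without any 1 ambient array or hypoxia replicate 1. Of the 14 calls in these 4 lists, 4 were kept whichever array was left out, those of Ctsb, Il1b, Pparg and Lama5.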

How the data were processed

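Biotin-labelled cRNA from total RNA of 6 metrial gland samples was hybridised to single-channel Affymetrix rat arrays, per the labels' protocols. The authors deposited 1 log2 signal for each probe set and array, a scale read from the values. MAS5 and the Affymetrix Expression Console appear in the submitters' processing notes without a role. How background was corrected and arrays scaled is not given in the labels or headers. Array medians lay between 6.44 and 6.47. An equalising normalization hides shifts of most genes.

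After removal of 57 control probe sets, the 40% of probe sets with the lowest mean were left out (12417, means below 5.74), leaving 18625. The groups were compared with limma 3.58.1 in R 4.3.3 (lmFit, eBayes with a mean-variance trend, group as the only term), two-sided, at an adjusted p of 0.05, and the fit was checked on data with known answers. A gene was read at its kept probe set of highest mean. Of 31042 probe sets, 20826 had 1 symbol, 436 several and 9780 none; 20758 were matched in the RefSeq table of GRCr8. Promoters are from RefSeq, GRCr8. Array number limits the precision.

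The members and lists were chosen with earlier results of these data known. Named were all members, other Mmp and Timp genes past the threshold, up to 4 called genes of each list, up to 3 called markers and the 3 genes most correlated with each member that rose; others, such as Mmp3, Mmp13, Furin, the AP-1 subunits and the dim family members, were named after their values were seen. Alternatives were the filter, the normalization, an offset of 64, the variance model, array weights, a replicate block, averaged probe sets and leaving out each array.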

Additional observations from a re-analysis of the deposited data

How the results depend on the processing

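Over 17 alternatives the number of member genes called higher was 2 or 3 with all 6 arrays, and between 1 and 2 with 1 array left out: 1 when ambient replicate 2 or 3 or hypoxia replicate 3 was dropped, and 2 when another was. The number called lower was 0 in every alternative run. The differences of Mmp10, Mmp12 and Mmp15 were positive in all 17, and their calls were kept in 16, 11 and 13 of them. The change of the score of proteases minus inhibitors lay between 0.87 and 1.18 over its 14 alternatives, and between 0.90 and 1.16 with 1 array left out. Among members that did not pass, the sign turned for Mmp2 when its probe sets were averaged (-0.028) and for Timp3 without hypoxia replicate 1 (-0.033; 0.27 without hypoxia replicate 2). The counts of all calls, 749 higher and 367 lower, fell to 223 and 44 without ambient replicate 3. The labels number the replicates 1 to 3 in both groups. The deviations of arrays with the same number from their group means correlated at 0.012, 0.071 and 0.070, and not every array correlated best with its own number, so the numbers were not taken as a pairing. With the replicate block 797 probe sets were higher and 520 lower, the 3 members kept their calls, and 1 other Mmp gene was called, Mmp13 (-0.59, adjusted p = 0.0149).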
